A study of Homo sapiens with 12 samples.

Results

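Integrins and other receptors for the extracellular matrix were described in 786-O and PC3 cells cultured with or without muscle precursor cells. The genes were taken by symbol: integrin α chains (ITGA genes), integrin β chains (ITGB1 to ITGB8), the syndecans SDC1 to SDC4, CD44, and the discoidin domain receptors DDR1 and DDR2. They came to 32 of the 19763 genes named on the array and to 100 of its 54675 probe sets. Of the 32 genes 17 code for α chains (35 probe sets), 8 for β chains (36), 4 for syndecans (8), 2 for discoidin receptors (8) and 1 for CD44 (13). ITGA1, an α chain of a collagen receptor, was not analysed here.

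An integrin is a pair of 1 α and 1 β chain in the plasma membrane, and the pair decides what the cell can hold. Some pairs bind fibronectin, others collagen, others laminin, and a few bind receptors on neighbouring cells or release latent TGF-β from its carrier. Inside the cell the β chain is linked to actin, or in the case of ITGB4 to intermediate filaments. Syndecans are membrane proteoglycans that bind matrix proteins and growth factors through heparan sulfate chains. CD44 is the main receptor for hyaluronan, and the discoidin receptors are tyrosine kinases that collagen activates.

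There were 4 groups of 3 arrays each. In the first group 786-O, a human renal carcinoma line, shared its medium with primary myoblasts, and in the second 786-O was cultured alone. In the third group PC3, a human prostate carcinoma line, shared its medium with the same kind of myoblasts, and in the fourth PC3 was cultured alone. The myoblasts came from limbs of C57BL/6-Tg GFP mice aged 5 days and were placed above the cancer cells in a transwell insert, so that the cell types did not touch. The labels give 30000 cancer cells seeded 6 h ahead of 10000 myoblasts, elsewhere a 1:1 ratio, and a harvest 12 h later. The medium was RPMI1640 for 786-O and F-12K for PC3, so that line and medium cannot be told apart. Whether the 3 repeats of a group were separate cultures is not labelled, and p-values cover only the spread between these samples. Each array measured the RNA of a whole well, and fewer expressing cells and less RNA per cell cannot be told apart.

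Values are log2 of the deposited signal, so that a difference of 1 is a doubling. A log2 signal of 4 (a signal of 16) was taken as the floor. A gene was called where its p-value from limma, adjusted by the Benjamini-Hochberg method over 12504 genes, was under 0.05. Of the 32 genes, 22 passed a filter on dim signals (mean log2 signal above 2.65) and were tested, through the brightest probe set of each. The other 10 (ITGA10, ITGA11, ITGA2B, ITGA8, ITGA9, ITGAD, ITGAL, ITGAM, ITGAX and ITGB7) did not reach a log2 signal above 3.01 on any array in any of their 22 probe sets.

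On each array 42.2% to 42.9% of probe sets were above the floor, a share that any scaling before deposit would bring together. Replicate 2 of co-cultured 786-O stood apart in its 3′ to 5′ ratios. The ratio of its 3′ to its 5′ probe set signal was 7.22 for ACTB, where the 11 remaining arrays had 3.08 to 4.24, and 1.84 for GAPDH, where they had 1.07 to 1.29. The labels, in contrast, give an RNA integrity number of 10 for every sample, this replicate included. Values without this replicate are given beside the results that it moves, and for the comparison of the lines in co-culture they stand together after the members. Of 10 myoblast markers 0 were above the floor in any group (MYOD1, MYF5, MYOG, PAX7 and DES among them), and their summed signal ran from 46.2 to 49.3 in co-cultured 786-O, against 46.0 to 48.5 in 786-O alone, and from 49.0 to 55.2 in co-cultured PC3, against 48.7 to 51.0 in PC3 alone. The myoblasts were from mice, and the array is one for human genes. These signals therefore cannot tell whether myoblast RNA was present. The renal transcription factor PAX8 averaged 10.37 in co-cultured 786-O and 9.57 in 786-O alone, while HOXB13 and EPCAM, markers of prostate epithelium, averaged 8.48 and 12.30 in co-cultured PC3 and 8.22 and 11.96 in PC3 alone. KLK3, another prostate marker, lay under the floor in both lines.

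The lines differed in most of the receptors tested. In co-culture 20 of the 22 tested genes were called between 786-O and PC3, 12 higher and 8 lower in 786-O, and 11 of these differed at least 2-fold on fitted values. Those values include signals under the floor, and ITGA7, 1 of the 11, averaged under it in both lines. Over all genes 76.2% were called in this comparison, 38.5% higher and 37.6% lower, and 33% were called with at least a 2-fold difference. The arrays of the lines did not overlap for 20 members, against 76.8% of all genes. The members' median difference was 1.02 in size, against 0.61 over all genes.

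Between the lines grown alone 21 of 22 were called, 13 higher and 8 lower in 786-O, against 75% over all genes (37% higher and 37.9% lower). Again 11 differed at least 2-fold on fitted values (32.2% over all genes), and none of the 22 overlapped (83.4% over all genes did not). Signals under the floor enter these counts too, as do ITGB4, ITGB2 and ITGA4, which passed the filter through 1 line only. ITGB6 is among the 11, though its bound against the floor was at least 1.37-fold. The median size was 0.98, against 0.59. Without replicate 2 of co-cultured 786-O, 19 of 22 were called in co-culture (78% over all genes). The largest shift among the members was then that of ITGB3, by 0.52, and ITGA3, at 1.09 with that array and 0.94 without it, remained called.

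The laminin receptor chain ITGB4, which joins ITGA6 in hemidesmosomes, was measured above the floor only in PC3. Its log2 signals were 2.51, 2.41 and 2.24 in co-cultured 786-O and 2.43, 2.58 and 2.29 in 786-O alone. In PC3 they were 10.69, 10.63 and 10.83 in co-culture and 10.15, 10.06 and 10.41 alone. All 6 arrays of 786-O lay under the floor and all 6 of PC3 far above it. ITGB4 was thus at least 105-fold lower in 786-O than in PC3 in co-culture (limma, adjusted p = 9.35e-14), and at least 73.8-fold lower when each was cultured alone (adjusted p = 1.81e-13), both bounds taken against the floor. ITGA6, which also pairs with ITGB1, was bright on all 12 arrays (12.90 to 13.12 and 13.12 to 13.21 in co-cultured 786-O and 786-O alone, 13.26 to 13.45 and 13.25 to 13.36 in co-cultured PC3 and PC3 alone). Its difference between the lines was -0.35 ± 0.06 (SE) in co-culture (limma, adjusted p = 0.000376), and -0.13 ± 0.06 alone, which was not called (adjusted p = 0.0795). With the mean of its probe sets in place of the brightest, the difference alone was -0.54 and called (adjusted p = 0.000203).

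ITGB3 had the opposite pattern. This β chain forms a vitronectin receptor with ITGAV and the platelet fibrinogen receptor with ITGA2B. Log2 signals were 10.21, 8.64 and 10.19 in co-cultured 786-O and 10.12, 9.93 and 10.00 in 786-O alone, against 4.23, 2.61 and 3.11 in co-cultured PC3 and 3.72, 3.57 and 3.67 in PC3 alone. Only 1 of the 6 PC3 arrays lay above the floor, and narrowly. With arrays under the floor set to it, ITGB3 was at least 48.7-fold higher in 786-O in co-culture (limma, adjusted p = 4.36e-08) and at least 64.7-fold higher alone (adjusted p = 4.41e-08). The low value of 8.64 belongs to replicate 2.

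ITGA4, the α chain of the VCAM1 and fibronectin receptor α4β1, was likewise measured in 786-O only. It stood at 7.45, 8.20 and 8.02 in co-cultured 786-O and 8.27, 7.67 and 8.19 in 786-O alone. The PC3 values were 2.23, 2.13 and 2.37 in co-culture and 2.42, 2.18 and 2.14 alone, all under the floor. It was at least 14.8-fold higher in 786-O in co-culture (limma, adjusted p = 2.11e-10) and at least 16.5-fold higher alone (adjusted p = 1.65e-10).

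ITGB2, the β chain of the leukocyte integrins, gave a moderate signal in PC3 and none above the floor in 786-O. Its signals were 2.67, 2.22 and 2.21 in co-cultured 786-O and 2.68, 2.24 and 2.50 in 786-O alone, against 5.93, 5.79 and 6.00 in co-cultured PC3 and 5.90, 6.34 and 6.32 in PC3 alone. It was at least 3.75-fold lower in 786-O in co-culture (limma, adjusted p = 5.37e-09) and at least 4.56-fold lower alone (adjusted p = 3.41e-09). The α chains that pair with it, ITGAL, ITGAM, ITGAX and ITGAD, were among the 10 genes under the filter. Of 5 leukocyte markers read, PTPRC and CD3E included, 0 were above the floor in any group, with summed signals of 21.9 to 22.2 in co-cultured 786-O, 22.2 to 22.3 in 786-O alone, 22.0 to 23.1 in co-cultured PC3 and 22.6 to 24.8 in PC3 alone. CD68, also on that list, had no probe set named for it alone and was not read.

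The collagen receptor chain ITGA2 and the collagen receptor kinase DDR1 were both lower in 786-O. ITGA2 had 8.67, 8.65 and 8.59 in co-cultured 786-O and 8.69, 8.31 and 8.64 in 786-O alone, against 12.22, 12.08 and 12.22 in co-cultured PC3 and 12.21, 11.90 and 11.85 in PC3 alone. The lines did not overlap, with a log2 difference of -3.54 ± 0.12 in co-culture (limma, adjusted p = 4.79e-11) and -3.44 ± 0.12 alone (adjusted p = 6.42e-11). For DDR1, whose array values stand with the co-culture results, the difference was -1.71 ± 0.22 in co-culture (limma, adjusted p = 1.78e-05), or -2.03 without replicate 2, and -2.18 ± 0.22 alone (adjusted p = 2.03e-06). DDR2, the other kinase, lay near the floor in every group, between 3.12 and 4.95.

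The fibronectin and vitronectin receptor chains ITGA5 and ITGAV were higher in 786-O. ITGAV, the shared α chain of several receptors for RGD-containing ligands, had 13.22, 13.28 and 13.11 in co-cultured 786-O and 13.35, 13.31 and 13.39 in 786-O alone, against 12.12, 11.95 and 12.12 in co-cultured PC3 and 11.98, 11.85 and 11.64 in PC3 alone. The difference was 1.14 ± 0.08 in co-culture (limma, adjusted p = 7.84e-08) and 1.52 ± 0.08 alone (adjusted p = 5.21e-09). ITGA5 differed by 0.97 ± 0.06 in co-culture (adjusted p = 2.56e-08) and 1.17 ± 0.06 alone (adjusted p = 4.35e-09). Neither gene's arrays overlapped between the lines.

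The heparan sulfate proteoglycan SDC2 was the syndecan that differed most. Its log2 signals were 12.65, 12.74 and 12.51 in co-cultured 786-O and 12.72, 12.58 and 12.68 in 786-O alone, against 10.79, 10.71 and 10.77 in co-cultured PC3 and 10.73, 10.61 and 10.61 in PC3 alone. The groups lay well apart, by 1.87 ± 0.07 in co-culture (limma, adjusted p = 1.35e-10) and 2.01 ± 0.07 alone (adjusted p = 7.07e-11). SDC1, SDC3 and SDC4 differed by 0.40, 0.68 and -0.02 in co-culture, where SDC4 was not called (adjusted p = 0.909), and by 0.35, 0.27 and 0.46 alone, all called, SDC3 narrowly (adjusted p = 0.0498). Without replicate 2 of co-cultured 786-O, SDC4 had 0.17 in co-culture and was called (adjusted p = 0.0310). With the mean of its probe sets SDC1 had 0.09 alone and was not called (adjusted p = 0.159). CD44 lay between 13.97 and 14.22 on the 12 arrays, and its small differences of 0.13 ± 0.03 in co-culture and 0.17 ± 0.03 alone were called (adjusted p = 0.00437 and 0.000584). With the mean of the CD44 probe sets neither was (0.15 and 0.23, adjusted p = 0.205 and 0.0613), and with arrays centred on their median the co-culture call was lost (0.07, adjusted p = 0.0868). ITGB1, the β chain shared by most of these α chains, was lower in 786-O by -0.51 ± 0.05 in co-culture and -0.42 ± 0.05 alone (adjusted p = 2.50e-06 and 1.53e-05).

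ITGB6, a chain of the TGF-β-activating integrin αvβ6, lay about the floor in 786-O and under it in PC3. It had 4.00, 4.22 and 3.74 in co-cultured 786-O and 4.56, 3.69 and 5.13 in 786-O alone, against 3.69, 3.05 and 2.83 in co-cultured PC3 and 2.32, 2.08 and 2.07 in PC3 alone. In co-culture both groups averaged under the floor, so that no fold is given. The call there (limma, adjusted p = 0.0434) was lost in 15 of 23 alternatives, without replicate 2 of co-cultured 786-O among them (adjusted p = 0.110). Alone the bound against the floor was at least 1.37-fold (adjusted p = 4.24e-05). Of the 10 tested members without array values here, 8 were called in co-culture (4 each way) and 9 alone (5 higher and 4 lower in 786-O). They include ITGA7, which averaged under the floor in all 4 groups, and DDR2, which did so in 786-O alone.

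Without replicate 2 of co-cultured 786-O, the bounds in co-culture were at least 105-fold for ITGB4, 69.8-fold for ITGB3, 13.3-fold for ITGA4 and 3.75-fold for ITGB2. ITGA2, ITGAV, ITGA5 and SDC2 then differed by -3.54, 1.10, 0.96 and 1.82. ITGA6, ITGB1, SDC1, SDC3 and CD44 differed by -0.40, -0.55, 0.46, 0.69 and 0.12. All of these were called with and without that array, whereas ITGAE (adjusted p = 0.0648 in limma) lost its call with ITGB6.

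**Figure D1:**
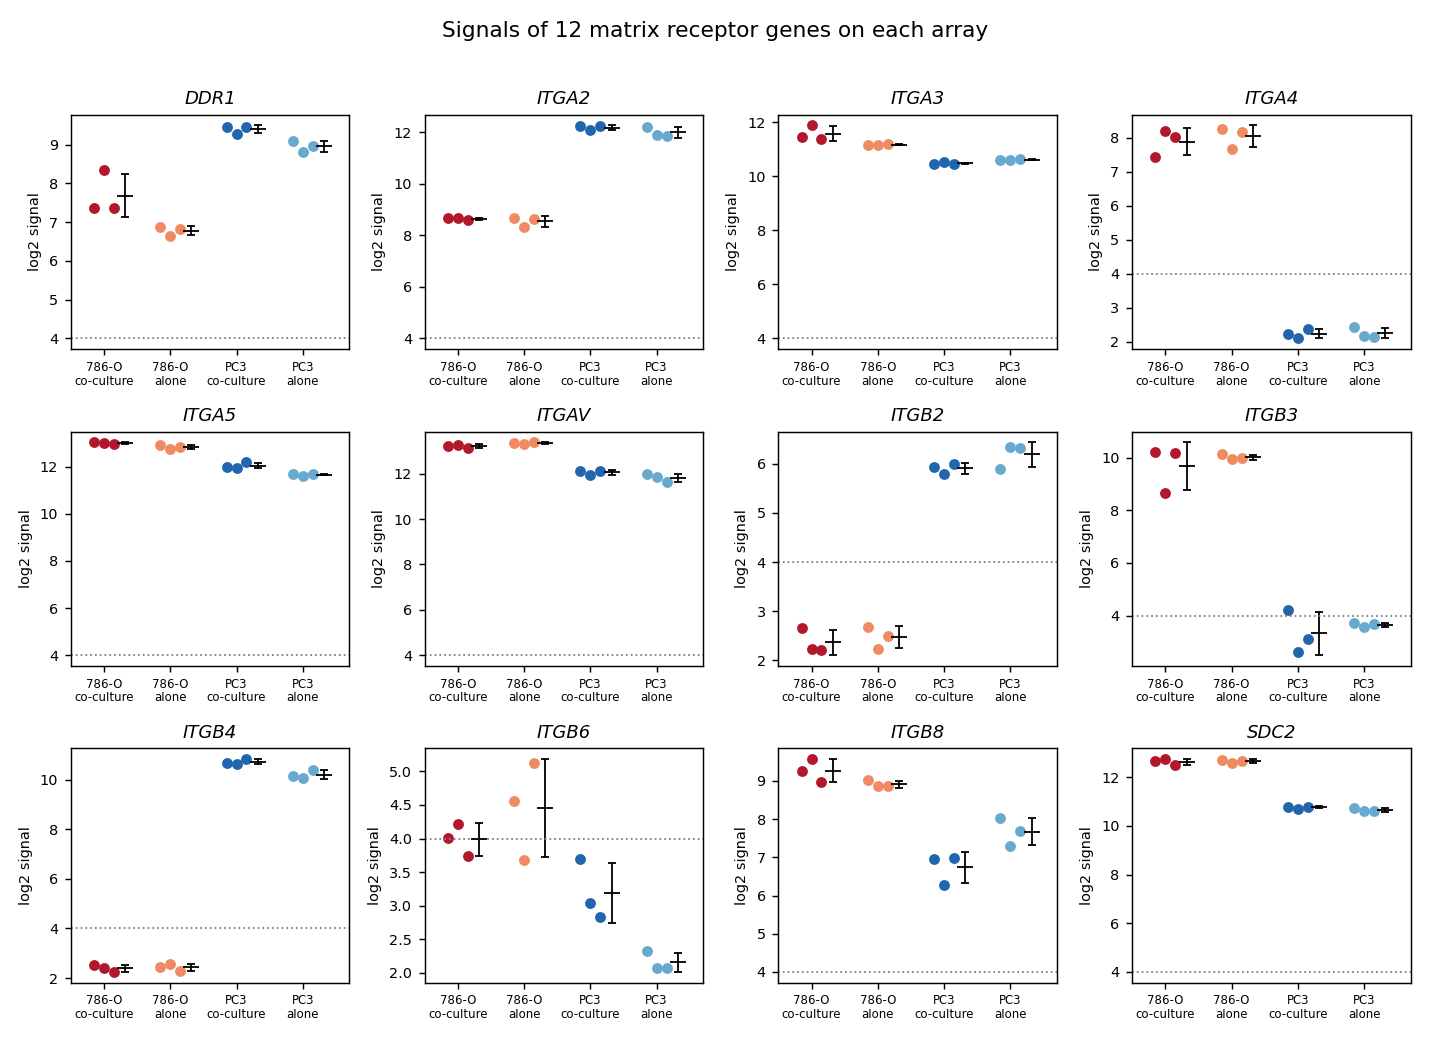
Log2 signal (y axis) of 12 receptor genes on each of the 12 arrays, by group (x axis). Points are single arrays, black marks the group mean with its SD (n = 3), and the dotted line is the floor at 4. ITGA4 and ITGB3 sit above the floor in 786-O and, but for 1 ITGB3 array, under it in PC3, and ITGB2 and ITGB4 the reverse.

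**Figure D2:**
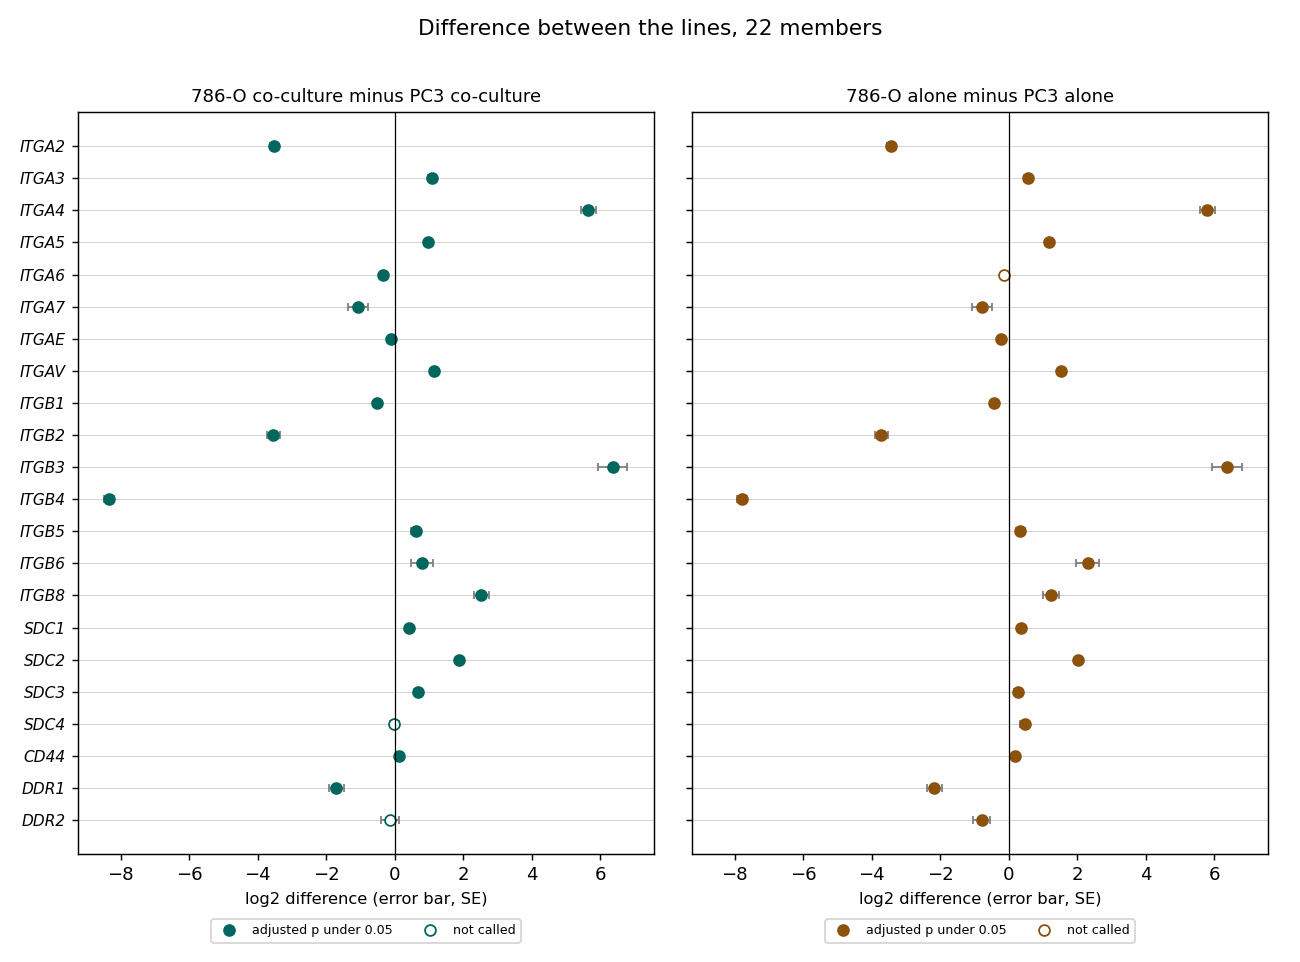
Log2 difference between 786-O and PC3 (x axis) for the 22 tested genes (y axis), in co-culture on the left and alone on the right, with SE bars. Filled points had an adjusted p under 0.05. ITGB4 lies at -8.33 and -7.78, and ITGB3 at 6.36 in both panels, on fitted values that include signals under the floor.

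The chains were then read as textbook pairs of α and β, by whether each chain's group mean was above the floor. Of 24 pairs, 23 had both chains on the list. Both chains were above the floor for 9 pairs in co-cultured 786-O, 10 in 786-O alone, 8 in co-cultured PC3 and 8 in PC3 alone. The pairs α4β1 and αvβ3 met this in 786-O only, and α6β4 in PC3 only. The extra pair of 786-O alone was αvβ6, since ITGB6 averaged 3.99 in co-culture and 4.46 alone, a difference that was not called (adjusted p = 0.364 in limma). The collagen receptor α2β1, the laminin receptors α3β1 and α6β1, the fibronectin receptor α5β1 and the pairs αvβ1, αvβ5 and αvβ8 had both chains above the floor in all 4 groups. ITGAE, the α chain known from intraepithelial lymphocytes that binds E-cadherin, was bright in every group (12.30, 12.22, 12.41 and 12.44 in co-cultured 786-O, 786-O alone, co-cultured PC3 and PC3 alone), while ITGB7, its partner, averaged 2.20, 2.21, 2.23 and 2.21. These are transcripts, and the chains at the cell surface were not measured.

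The base sequence ahead of the gene start is shown for ITGA2 and ITGA4, whose signals separated the lines in opposite directions. The stretches are the 250 bases upstream of the RefSeq start on GRCh38.p14, 5′ to 3′ on the strand of the gene. ITGA2 lies at chr5:52989102-52989351 (+) and ITGA4 at chr2:181457136-181457385 (+). Capitals mark GGGCGG, the box bound by Sp1 factors, on either strand.
ITGA2: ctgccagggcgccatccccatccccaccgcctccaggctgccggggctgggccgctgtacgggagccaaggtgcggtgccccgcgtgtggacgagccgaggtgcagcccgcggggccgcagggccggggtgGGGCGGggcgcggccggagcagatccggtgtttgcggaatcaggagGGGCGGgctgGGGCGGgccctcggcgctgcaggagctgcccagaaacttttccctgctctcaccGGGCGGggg
ITGA4: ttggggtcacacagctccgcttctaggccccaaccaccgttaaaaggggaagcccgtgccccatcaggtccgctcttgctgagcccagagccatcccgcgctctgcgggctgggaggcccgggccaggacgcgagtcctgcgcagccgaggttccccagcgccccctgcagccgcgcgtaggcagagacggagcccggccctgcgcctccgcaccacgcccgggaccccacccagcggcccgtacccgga
The ITGA2 stretch held the box 4 times and the ITGA4 stretch 0 times. GGGCGG occurred in 42.64% of 35116 promoter stretches of the same length, and in 11 of the 22 members that the RefSeq table held. The E-box CACCTG, searched on both strands, occurred in 5 of the 22, against 17.49% of all stretches, and the AP-1 site TGANTCA in 0 of the 22, against 6.573%. A match in letters is a description and not a measured site.

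Few of these receptors changed in co-culture. In 786-O, 2 of the 22 genes rose in co-culture and 0 fell (9.09%), against 12% of all genes called, 8.08% higher and 3.9% lower. The members' median difference was -0.004, against 0.017 over all genes, and 6 members had an unadjusted p under 0.05. In PC3, 1 rose and 1 fell (9.09%), against 5.7% of all genes (3.19% higher and 2.51% lower), with a median of 0.09 against 0.005 and 5 members at an unadjusted p under 0.05. Neither share stands far from its background. The groups did not overlap for 7 members in each line, against 35.3% of all genes in 786-O and 27.2% in PC3.

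DDR1 had the largest called change in 786-O. It reached 7.37, 8.34 and 7.35 in co-cultured 786-O, against 6.88, 6.65 and 6.81 in 786-O alone. All 3 co-culture arrays were above the 3 others, with replicate 2 the highest by far. The difference was 0.91 ± 0.22, a 1.87-fold rise (limma, adjusted p = 0.0252), and 0.58 ± 0.12 without replicate 2 (adjusted p = 0.0112). Tested one by one, 3 of its 4 probe sets above the filter were called, at 0.91, 0.92 and 1.29, and the last had 0.80 (adjusted p = 0.109). In PC3 the values were 9.44, 9.28 and 9.46 in co-culture and 9.09, 8.81 and 8.97 alone. These arrays did not overlap either, but the difference of 0.44 ± 0.22 was not called (adjusted p = 0.338).

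ITGA3, the α chain of the laminin receptor α3β1, also rose in 786-O. Its signals were 11.47, 11.88 and 11.37 in co-cultured 786-O and 11.16, 11.16 and 11.20 in 786-O alone, again without overlap and with replicate 2 highest. The difference was 0.40 ± 0.11, or 1.32-fold (limma, adjusted p = 0.0320), and 0.25 ± 0.05 without replicate 2 (adjusted p = 0.0146). In PC3 it had 10.47, 10.52 and 10.47 in co-culture and 10.62, 10.59 and 10.63 alone, a difference of -0.13 ± 0.11 (adjusted p = 0.623). The 786-O response minus the PC3 response was 0.53 ± 0.15 (adjusted p = 0.0604), and 0.38 without replicate 2, where it was called (adjusted p = 0.00958).

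Both 786-O calls were lost when any 1 of the 3 arrays of 786-O alone was left out, that of ITGA3 also without replicate 1 of co-cultured PC3. The highest adjusted p in limma was then 0.0873 for DDR1 and 0.0974 for ITGA3. Without the filter it was 0.0593 and 0.0599, and in a fit of the 6 arrays of 786-O only, which called 1.4% of genes, it was 0.157 and 0.162.

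A few other members came near the threshold in 786-O. DDR2, which averaged under the floor in 786-O alone, had a bound of at least 1.34-fold over that group (limma, adjusted p = 0.0663). SDC3 differed by 0.33 ± 0.11 (adjusted p = 0.0799), ITGA5 by 0.18 ± 0.06 (0.0802) and ITGB5, the β chain of a second vitronectin receptor, by 0.38 ± 0.14 (0.0847). Without replicate 2 the adjusted p was 0.0932 for DDR2, and SDC3, ITGA5 and ITGB5 had 0.34, 0.17 and 0.26 (adjusted p = 0.0883, 0.118 and 0.219). For ITGB5 the probe sets differed in call. The brightest was not called, whereas the next brightest (0.39 ± 0.09, adjusted p = 0.0253) and the one after it (0.64 ± 0.16, adjusted p = 0.0342) were when probe sets were tested one by one. On the last of these the signals were 10.23, 10.79 and 10.30 in co-cultured 786-O and 9.82, 9.74 and 9.84 in 786-O alone, without overlap.

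ITGA5, the α chain of the main fibronectin receptor, rose in PC3. It had 11.98, 11.96 and 12.18 in co-cultured PC3 and 11.68, 11.62 and 11.69 in PC3 alone, with every co-culture array above every other. The difference was 0.38 ± 0.06, or 1.30-fold (limma, adjusted p = 0.00314), and the call was kept under every alternative run. In 786-O the same gene had 13.03, 13.02 and 12.98 in co-culture and 12.91, 12.76 and 12.82 alone, also without overlap and not called. The difference of the responses was -0.20 ± 0.09 (adjusted p = 0.194).

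ITGB8, the β chain of the TGF-β-activating integrin αvβ8, fell in PC3. Its signals were 6.95, 6.26 and 6.99 in co-cultured PC3 and 8.03, 7.30 and 7.68 in PC3 alone, and the groups did not overlap. It fell by 0.94 on the log2 scale (SE 0.23; limma, adjusted p = 0.0355). In 786-O it had 9.26, 9.57 and 8.96 in co-culture and 9.02, 8.87 and 8.85 alone. These overlapped, and the difference of 0.35 ± 0.23 was not called (adjusted p = 0.331).

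ITGB8 was also the 1 member for which the responses of the lines differed, against 5.97% of all genes (3.4% higher and 2.57% lower in 786-O). Its response in 786-O minus that in PC3 was 1.29 ± 0.33 (limma, adjusted p = 0.0407), and 1.14 without replicate 2 (adjusted p = 0.0478). Its difference between the lines was 2.53 ± 0.23 in co-culture (adjusted p = 7.58e-07) and 1.24 ± 0.23 alone (adjusted p = 0.000380). The PC3 call was lost in 11 of 24 alternatives, with an adjusted p of up to 0.114 without replicate 2 of co-cultured PC3. The call on the difference of responses was lost in 14 of 23, with up to 0.0979 without replicate 3 of 786-O alone.

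The 250 bases ahead of the RefSeq starts of ITGA5, at chr12:54419267-54419516 (-), and of ITGB8, at chr7:20330650-20330899 (+), are shown since these genes moved in opposite directions in PC3. They follow the strand of the gene on GRCh38.p14, with GGGCGG or its reverse complement in capitals.
ITGA5: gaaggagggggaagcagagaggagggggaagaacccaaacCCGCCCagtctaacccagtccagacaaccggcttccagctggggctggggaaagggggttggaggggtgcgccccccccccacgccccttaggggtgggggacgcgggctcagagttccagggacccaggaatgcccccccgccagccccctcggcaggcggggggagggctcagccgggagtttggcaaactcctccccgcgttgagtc
ITGB8: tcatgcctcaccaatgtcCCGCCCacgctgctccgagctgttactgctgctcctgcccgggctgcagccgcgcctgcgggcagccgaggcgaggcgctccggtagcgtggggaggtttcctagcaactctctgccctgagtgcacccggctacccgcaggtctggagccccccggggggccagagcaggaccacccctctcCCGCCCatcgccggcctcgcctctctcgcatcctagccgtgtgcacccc
The box occurred 1 time in the ITGA5 stretch and 2 times in that of ITGB8.

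Several members moved in PC3 without a call. ITGB4 had 10.69, 10.63 and 10.83 in co-culture and 10.15, 10.06 and 10.41 alone, which did not overlap, with a difference of 0.51 ± 0.14 (limma, adjusted p = 0.0643). A dimmer ITGB4 probe set was called when tested one by one (0.88 ± 0.17, adjusted p = 0.0155), with 7.22, 7.10 and 7.08 in co-cultured PC3 against 6.28, 6.57 and 5.91 in PC3 alone. ITGB6 had an adjusted p of 0.103 with all of its PC3 arrays under the floor, so that no fold is given. ITGAV differed by 0.24 ± 0.08 (adjusted p = 0.129). The remaining uncalled members of the PC3 comparison, 20 in all with those above, ran from -0.33 to 1.03, and the 20 of the 786-O comparison from -0.47 to 0.78, on fitted values that include signals under the floor.

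**Figure D3:**
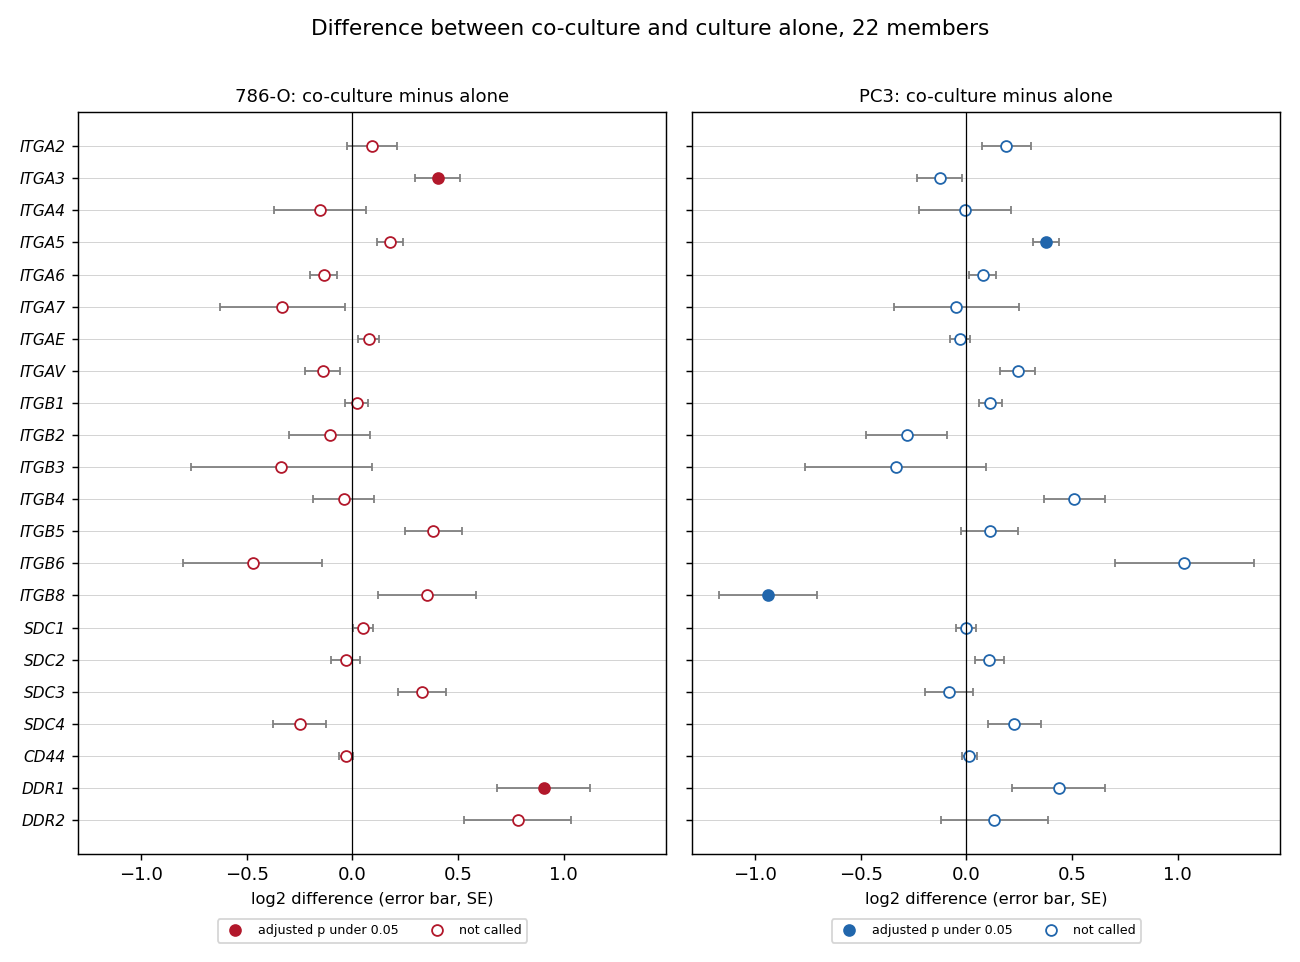
Log2 difference between co-culture and culture alone (x axis) for the 22 tested genes (y axis), in 786-O on the left and PC3 on the right, with SE bars. Filled points had an adjusted p under 0.05: DDR1 at 0.91 and ITGA3 at 0.40 in 786-O, and ITGA5 at 0.38 and ITGB8 at -0.94 in PC3.

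Replicate 2 of co-cultured 786-O departed from its group in both directions over the members' 51 probe sets above the filter. It was more than 0.5 below the mean of replicates 1 and 3 in 12 of them and more than 0.5 above it in 7. For comparison, replicate 1 of co-cultured PC3 was more than 0.5 from the mean of replicates 2 and 3 in 8. For replicate 2 of co-cultured 786-O, the low side held both ITGB3 probe sets (-2.12 and -1.56), a dim ITGB1 probe set (-1.58) and a CD44 probe set (-1.48). The brightest CD44 probe set, in contrast, read 14.16, 14.17 and 14.13 on replicates 1, 2 and 3. The high side held all 4 DDR1 probe sets, by 0.95 to 1.08. With the log2 ACTB ratio as a covariate, a fit added after the data were seen, DDR1 had 0.59 ± 0.12 (limma, adjusted p = 0.0104) and ITGA3 0.28 ± 0.08 (adjusted p = 0.0325) in 786-O.

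Leaving this array out also moved the calls in PC3, since the fit uses 1 spread per gene for all groups. The 786-O comparison then had 2 members called (12.4% of all genes), DDR1 and ITGA3 again. The PC3 comparison had 5 (10.5% of all genes), with DDR1 (0.44, limma, adjusted p = 0.0231), ITGB4 (0.51, 0.0371) and SDC4 (0.23, 0.0323) beside ITGA5 and ITGB8. In the difference of responses 3 were called (10.5% of all genes), where ITGAV at -0.42 (adjusted p = 0.0459) joined ITGA3 and ITGB8.

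**Figure D4:**
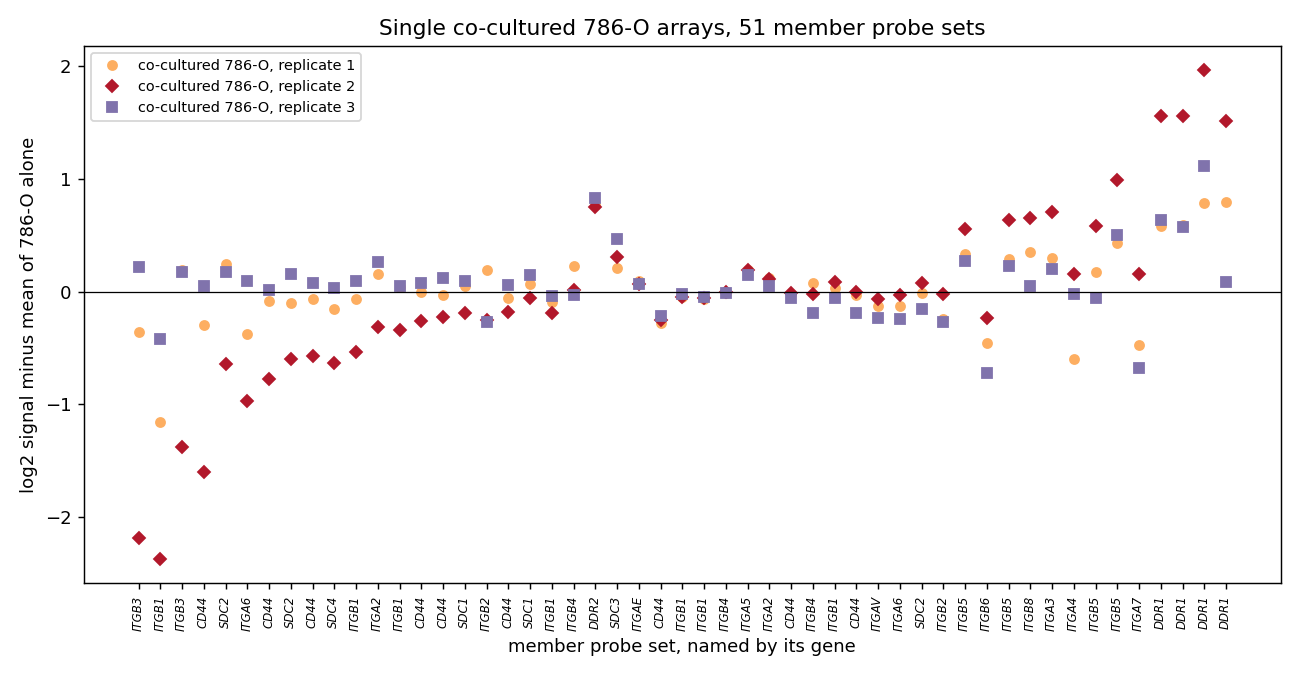
Log2 signal of each co-cultured 786-O array minus the mean of 786-O alone (y axis) for the 51 member probe sets above the filter (x axis, named by gene and ordered by how far replicate 2 departs from replicates 1 and 3). Diamonds mark replicate 2, which lies lowest for the ITGB3 probe sets on the left and highest for the 4 DDR1 probe sets on the right.

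Among the ligands of these receptors, laminin chains and fibronectin rose in 786-O. Of 29 tested matrix ligands 8 rose and 1 fell there, with a median difference of 0.23 against 0.017 over all genes, of which 8.08% rose and 3.9% fell. The laminin chains LAMA3, LAMB2 and LAMB3 rose by 1.28 ± 0.14, 0.84 ± 0.16 and 0.64 ± 0.12 (limma, adjusted p = 0.000319, 0.00804 and 0.00762). LAMA3 and LAMB3 belong to laminin-332, a ligand of α3β1. FN1, fibronectin itself, rose by 0.78 ± 0.13 (adjusted p = 0.00381), averaging 13.30 in co-cultured 786-O and 12.52 in 786-O alone. Thrombospondin 1 (THBS1), named as the only fall, had -0.59 ± 0.12 (adjusted p = 0.00935). Without replicate 2 of the co-culture, LAMA3, LAMB2, LAMB3, FN1 and THBS1 had 1.16, 0.72, 0.49, 0.59 and -0.46, all still called. In that fit 8 ligands rose and 2 fell, and 12.4% of all genes were called. The second fall was CCN2, at -0.47 ± 0.07 (limma, adjusted p = 0.00302).

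In PC3, 3 of the 29 matrix ligands rose and 1 fell, with a median of 0.15 against 0.005 over all genes, of which 3.19% rose and 2.51% fell. THBS1 rose there by 0.78 ± 0.12 (limma, adjusted p = 0.00162), the collagen chain COL4A1 by 0.56 ± 0.10 (adjusted p = 0.00670) and COL1A1 by 0.77 ± 0.20 (adjusted p = 0.0498). CCN2, a matricellular ligand of several integrins, had -1.08 ± 0.11 (adjusted p = 7.23e-05). FN1 and LAMA3 had -0.21 ± 0.13 and -0.14 ± 0.14 in PC3, neither called. The response in 786-O minus that in PC3 was called for 4 ligands upward and 2 downward (3.4% and 2.57% over all genes), among them FN1 (0.99 ± 0.18, adjusted p = 0.00906), LAMA3 (1.42 ± 0.19, adjusted p = 0.00164) and THBS1 (-1.37 ± 0.16, adjusted p = 0.000746). Without replicate 2 of co-cultured 786-O, 6 ligands rose and 2 fell in PC3, where 10.5% of all genes were called. FN1 was then the second fall beside CCN2, at -0.21 ± 0.06 (limma, adjusted p = 0.0419). The responses then differed for 3 ligands upward and 3 downward, with FN1, LAMA3 and THBS1 at 0.80, 1.29 and -1.24, all called.

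Of 5 tested ligands on cell surfaces, 2 rose in 786-O and 1 in PC3, against 8.08% and 3.19% of all genes. ICAM1, the counter-receptor of the ITGB2 integrins, rose by 0.52 ± 0.09 in 786-O (limma, adjusted p = 0.00407) and by 0.82 ± 0.09 in PC3 (adjusted p = 0.000109). F11R, a junctional adhesion molecule, rose by 0.45 ± 0.06 in 786-O (adjusted p = 0.00108) and had -0.07 ± 0.06 in PC3. Without replicate 2, ICAM1 and F11R had 0.45 and 0.43 in 786-O, both called.

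Among 25 tested activators and adaptors that couple integrins to actin, 3 rose and 1 fell in 786-O, where 8.08% of all genes rose and 3.9% fell, and 1 rose and 2 fell in PC3, where 3.19% rose and 2.51% fell. The docking protein NEDD9 rose in both lines, by 1.58 ± 0.15 in 786-O (limma, adjusted p = 0.000190) and 0.65 ± 0.15 in PC3 (adjusted p = 0.0267), and the responses differed by 0.93 ± 0.21 (adjusted p = 0.0283). Talin 1 (TLN1), which activates integrins through the β tail, and the integrin-linked kinase ILK rose in 786-O by 0.40 ± 0.11 and 0.26 ± 0.07 (adjusted p = 0.0427 and 0.0337). TNS1, a tensin that binds β tails and actin, fell in both lines, with -0.74 ± 0.18 in 786-O (adjusted p = 0.0259) and -1.51 ± 0.18 in PC3 (adjusted p = 0.000331), and TLN2, a second talin, had -1.07 ± 0.25 in PC3 (adjusted p = 0.0294). Without replicate 2, NEDD9, TLN1 and TNS1 had 1.69, 0.23 and -0.86 in 786-O and stayed called, while ILK had 0.19 and lost its call (adjusted p = 0.0512), and 2 of the 25 rose and 4 fell.

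Few other neighbours of the receptors were called, where 12% of all genes were called in 786-O and 5.7% in PC3. At list sizes of 3 to 9 genes, counts of 0 or 1 do not stand far from those shares. Of 9 tested membrane partners 0 were called in 786-O (2 had an unadjusted p under 0.05 in limma), and 1 rose in PC3, the tetraspanin CD151 with 0.19 ± 0.05 (adjusted p = 0.0459). Of 4 integrin inactivators 0 were called in either line, with 2 in 786-O and 1 in PC3 at an unadjusted p under 0.05. Of 9 other matrix receptors and proteoglycans 0 were called, and 0 had an unadjusted p under 0.05 in either line. Without replicate 2 of co-cultured 786-O, 1 membrane partner, the urokinase receptor PLAUR (-0.17, limma, adjusted p = 0.0250), and 1 other matrix receptor, the laminin-binding BCAM (-0.63, adjusted p = 0.0405), fell in 786-O, both named after their values were seen. Over all genes 12.4% were called in 786-O in that fit. Of 3 genes of hyaluronan synthesis and turnover 0 were called, with 0 in 786-O and 1 in PC3 at an unadjusted p under 0.05. The co-culture comparisons of the lines use separate arrays, whereas the difference of responses and the comparisons between lines use the same arrays again.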

How the data were processed

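RNA of 786-O and PC3 cells was hybridized to HG-U133 Plus 2 arrays. The authors deposited 1 linear intensity per probe set and array, in tables that held the same values for all 54675 probe sets. Per the submitters' processing notes MAS5 was used, its version not stated. The arrays' median signals lay between 5.46 and 5.73, and whether they were also scaled to each other is not given in the sources used here, so that the floor and the folds hold for the deposited scale. The build is not given in the sources used here.

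Intensities were taken to log2 with no constant added. Control probe sets (62) and those with no symbol (13164) or several (1522) were left out. Probe sets above the median probe set's mean (2.65) entered, 1 per gene (the brightest), and 12504 genes were fitted over 4 groups of 3 arrays in limma 3.58.1 under R 4.3.3 (eBayes with an intensity trend, two-sided) with Benjamini-Hochberg adjustment. The small number of arrays limits precision. The fit was tested on simulated data. Where a group lay under the floor, a fold is a bound against it. The floor was set after earlier results were known. Members, gene lists and tests were also chosen with earlier results of these data known. Array values are given for members called in a co-culture comparison or the difference of responses, and for those called between the lines alone with a log2 difference of at least 1. Of each list, up to 4 called genes with the smallest p per co-culture comparison are named. Marker lists were read by signal only. In the endothelial list only PECAM1 was above the floor, in PC3 (12.26 in co-culture and 11.50 alone). Of the renal list 5 of 7 and of the prostate list 3 of 8 were above it in 786-O, and 2 of 7 and 4 of 8 in PC3. Promoter bases are RefSeq's. Figures used matplotlib 3.10.9 (Python 3.11.15). Alternatives were other normalizations, filters, variance models, probe set choices, a replicate block and leaving out each array, and, chosen after seeing the data, the ACTB ratio as a covariate.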

Additional observations from a re-analysis of the deposited data

Results flagged for a closer look

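The change of ITGB8 with myoblasts differed between the lines, by a test of the difference itself. Its log2 response in 786-O minus that in PC3 was 1.29 ± 0.33 (SE; limma, adjusted p = 0.0407), from 0.35 ± 0.23 in 786-O and -0.94 ± 0.23 in PC3. The 3 co-culture arrays lay under the 3 others in PC3, and overlapped them in 786-O. The call on the difference was lost in 14 of 23 alternatives, with an adjusted p of up to 0.0979.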

How the results depend on the processing

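For the 12 genes with array values, 29 calls were made over the 5 comparisons. Of 671 recomputed values for these, 620 kept the call and its direction, 51 lost the call and 0 turned direction, and 21 values gained a call that was not made. In the co-culture comparisons the losses were 5 for DDR1 and 6 for ITGA3 in 786-O, and 11 for ITGB8 in PC3. ITGB8 lost 14 more in the difference of responses. The remaining 15 were those of ITGB6 between the lines in co-culture. The number of members called in 786-O with against without myoblasts was 2, and became 0 without a filter, 1 with a filter at the 75th percentile, 0 with the 6 arrays of 786-O only, 1 without _x_at and _s_at probe sets, 5 with the ACTB ratio in the fit, and 0 to 4 when arrays were left out in turn. Only 12 members were tested at the 75th percentile, and 16 without _x_at and _s_at probe sets. DDR1 was tested in neither setting. ITGA3 was the 1 called at the 75th percentile. Without _x_at and _s_at probe sets ITGA3 was not tested, and the 1 called was ITGB5 (0.64, limma, adjusted p = 0.0266). In PC3 the number called was 2 (5.7% of all genes). It became 1 without a filter (596 of 19763 genes) and 1 at the 75th percentile (419 of 8045, ITGB8 not tested). It was 1 with every probe set tested on its own (597 of 12504) and 5 with the ACTB ratio (11.1%). With arrays left out it was 1 to 5, the 5 without replicate 2 of co-cultured 786-O (10.5%). In the difference of responses it was 1 (5.97% of all genes). It became 0 with quantile normalization (708 of 12505 genes), 0 without a filter (569 of 19763) and 0 at the 75th percentile (478 of 8045, ITGB8 not tested). It was 0 without an intensity trend (675 of 12504) and 0 with every probe set on its own (600 of 12504). The ACTB ratio gave 6 (15.1%), and leaving arrays out gave 0 to 3. Between the lines it was 20 in co-culture and 21 alone (76.2% and 75% of all genes). At the 75th percentile, where 12 members were tested, it was 10 and 11 (6224 and 6158 of 8045 genes). With arrays left out it was 18 to 20 and 17 to 22. With the ACTB ratio, DDR1 and ITGA3 had 0.59 and 0.28 in 786-O (limma, adjusted p = 0.0104 and 0.0325).

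The repeat numbers did not pair the samples: deviations of same-numbered arrays correlated between -0.132 and 0.113 over 12 pairs. With a replicate block, 0 members were called in the difference of responses (520 of 12504 genes), where ITGB8 had an adjusted p of 0.0549 in limma. The member counts of the other comparisons stayed within 1.5 times. Only genes above the floor have a measured fold, and 3 arrays a group limit what small differences can be called.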
